A study of Mus musculus with 18 samples.

Results

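Transcripts of 40 genes of macrophages and of antigen presentation were followed in the whole testis of hypogonadal mice during 72 h of treatment with follicle-stimulating hormone (FSH). The genes were taken by name from a list of symbols that was chosen with earlier results of these data known. Each was represented by 1 probe set, the one with the highest mean over all 18 arrays among those that carry 1 gene symbol. All 40 were found among the 12393 genes on the array that have such a probe set.

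The animals were hpg males, which lack gonadotrophin-releasing hormone, so that their pituitary releases very little FSH or luteinising hormone. They were 10 weeks old, and the treated males received 8 IU of recombinant FSH (Gonal F) under the skin in 0.2 ml of phosphate-buffered saline at intervals of 12 h. Testes were collected 1 h after the last dose, from 4 mice treated for 12 h, 3 treated for 24 h and 4 treated for 72 h, and from 7 age-matched hpg males that were left untreated. Each mouse gave 1 array of total testis RNA. No group was injected with the vehicle alone, so that the hormone and the injections cannot be told apart.

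Macrophages are the most abundant immune cells of the testicular interstitium, where they lie against the Leydig cells. They depend on colony-stimulating factor 1 (Csf1) acting on its receptor Csf1r, take up debris through scavenger receptors, bind antibody-coated particles through Fc receptors, and make the C1q subunits that start the classical complement pathway. They also present peptides on class II molecules, whose alpha and beta chains are assembled with the invariant chain Cd74 until proteases such as legumain (Lgmn) and the exchange factor H2-DM free the groove. FSH acts on a receptor of the Sertoli cells inside the tubules. In whole testis RNA, fewer cells of a type and less RNA per cell cannot be told apart.

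The arrays formed a pair of technical sets, and every comparison with controls was made inside a set unless all 7 controls are named. The 12 arrays of the 12 h and 72 h groups and of controls 4 to 7 carried the bacterial spike-in Dap at 8.05 to 8.86 on the log2 scale, whereas the 6 arrays of the 24 h group and controls 1 to 3 read 2.70 to 3.41. The sets also differed in 18S ribosomal RNA, at 3.35 to 3.70 against 9.07 to 11.7, and in the actin 3 prime minus 5 prime difference, at 1.22 to 1.82 against 0.82 to 1.10. Untreated controls 1 to 3 differed from controls 4 to 7 in 5 of the 40 members, with Tyrobp, C1qc, Cd74 and Laptm5 lower by 0.86 to 1.42 and Trem2 higher by 0.44. Over all genes 5.79% were lower and 3.05% higher between the same controls. Levels are therefore not compared across the sets, save in the alternatives that ignore the sets. All values below are log2 expression as deposited, differences are differences of group means with their standard error (SE), and a gene is called where limma's adjusted p, over 22626 probe sets, lies below 0.05.

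Defining markers of the testis were present, with the Sertoli cell factor Sox9 at 8.78 in controls 4 to 7, the Leydig cell enzyme Cyp17a1 at 8.38 and the germ cell helicase Ddx4 at 9.40. Among the members, the defining macrophage genes Csf1r (7.83), Mrc1 (7.85), the 3 C1q genes (5.91 to 6.91) and Cd68 (5.56) were measured above the median of all probe sets, 4.54. A further 17 members lay below that median in every group, and 5 of these (Tlr2, Cd14, Cybb, Cd163 and H2-DMa) lay below the lower quartile of 2.62. At such values the array gives little more than an upper bound, and this holds for Spi1, Itgam, Itgb2, Ptprc, Cx3cr1, Fcgr1, Ccl2, Lcp2, Cd52, Msr1, Trem2 and Aif1 as well. The other 23 members carried all of the calls at 12 h and 72 h.

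At 72 h of FSH, 4 members were called higher than in controls 4 to 7 (Cd68, Fcer1g, Csf1 and Mrc1) and 2 lower (Fcgr2b and H2-Aa). That is 15% of the members against 7.26% of all genes, of which 4.23% were higher and 3.03% lower. Because the members were chosen with earlier results known, their shares here and below describe the set and test nothing. At 12 h no member was called higher (3.52% of all genes were) and 2 were called lower, Fcgr2b and Csf1r, against 2.76% of all genes. The 5% of members called at 12 h is close to the 6.28% of all genes. At an unadjusted p below 0.05, 7 of the 40 members differed at 12 h and 17 at 72 h, where 17.5% and 19.3% of all genes did. Between the untreated controls of both array sets 18 of 40 passed the same threshold, against 27.3% of all genes.

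At 24 h, 4 members were called higher than in controls 1 to 3 (Msr1, Itgam, Laptm5 and Cybb) and 3 lower (Fcgr2b, Csf1r and Cd74), against 6.38% and 8.45% of all genes. Each of these calls except that of Fcgr2b was lost without control 1, the array with the lowest 18S value of its set. The 17.5% of members called is near the 14.8% of all genes, and at an unadjusted p below 0.05 there were 11 of 40 members against 32.6% of all genes. With the numbered pairs of 24 h and control arrays as a block, 7 members were higher, where 11.5% of all genes were, and 3 lower, where 11% were. That block was chosen after seeing the data, and with the replicate number as a block in all groups 1 member was higher at 24 h. The pairs added Cd68 (0.65, adjusted p = 0.0311), Adgre1 (0.26, adjusted p = 0.0423) and Trem2 (0.39, adjusted p = 0.0499).

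Between 12 h and 72 h, both inside 1 array set, 5 members rose (Fcer1g, Cd68, Laptm5, Lcp1 and Mrc1) and 0 fell, against 1.76% and 1.1% of all genes. At an unadjusted p below 0.05, 14 of 40 members differed between these times, against 12.8% of all genes. In total 13 of 40 members were called in at least 1 of the 4 comparisons and 27 in none, where 20.8% of all genes were called in at least 1.

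The median change of the 40 members was -0.098 at 12 h, 0.17 at 72 h and 0.20 from 12 h to 72 h, and 0.092 at 24 h. The medians over all genes were -0.0048, 0.012, 0.019 and 0.038. In the same order, the 17 members below the median level in every group had median changes of -0.011, 0.041, 0.038 and 0.078. Those of the other 23 were -0.28, 0.32, 0.55 and 0.11. Of the 40 members, 28 lay below 0 at 12 h, whereas 29 lay above 0 at 72 h and 33 were higher at 72 h than at 12 h. These counts include the 17 members below the median level, many with differences near 0, and the like counts over all genes were not made. Comparisons of 12 h and of 72 h share controls 4 to 7, and the difference between the times was tested directly without the controls.

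**Figure D1:**
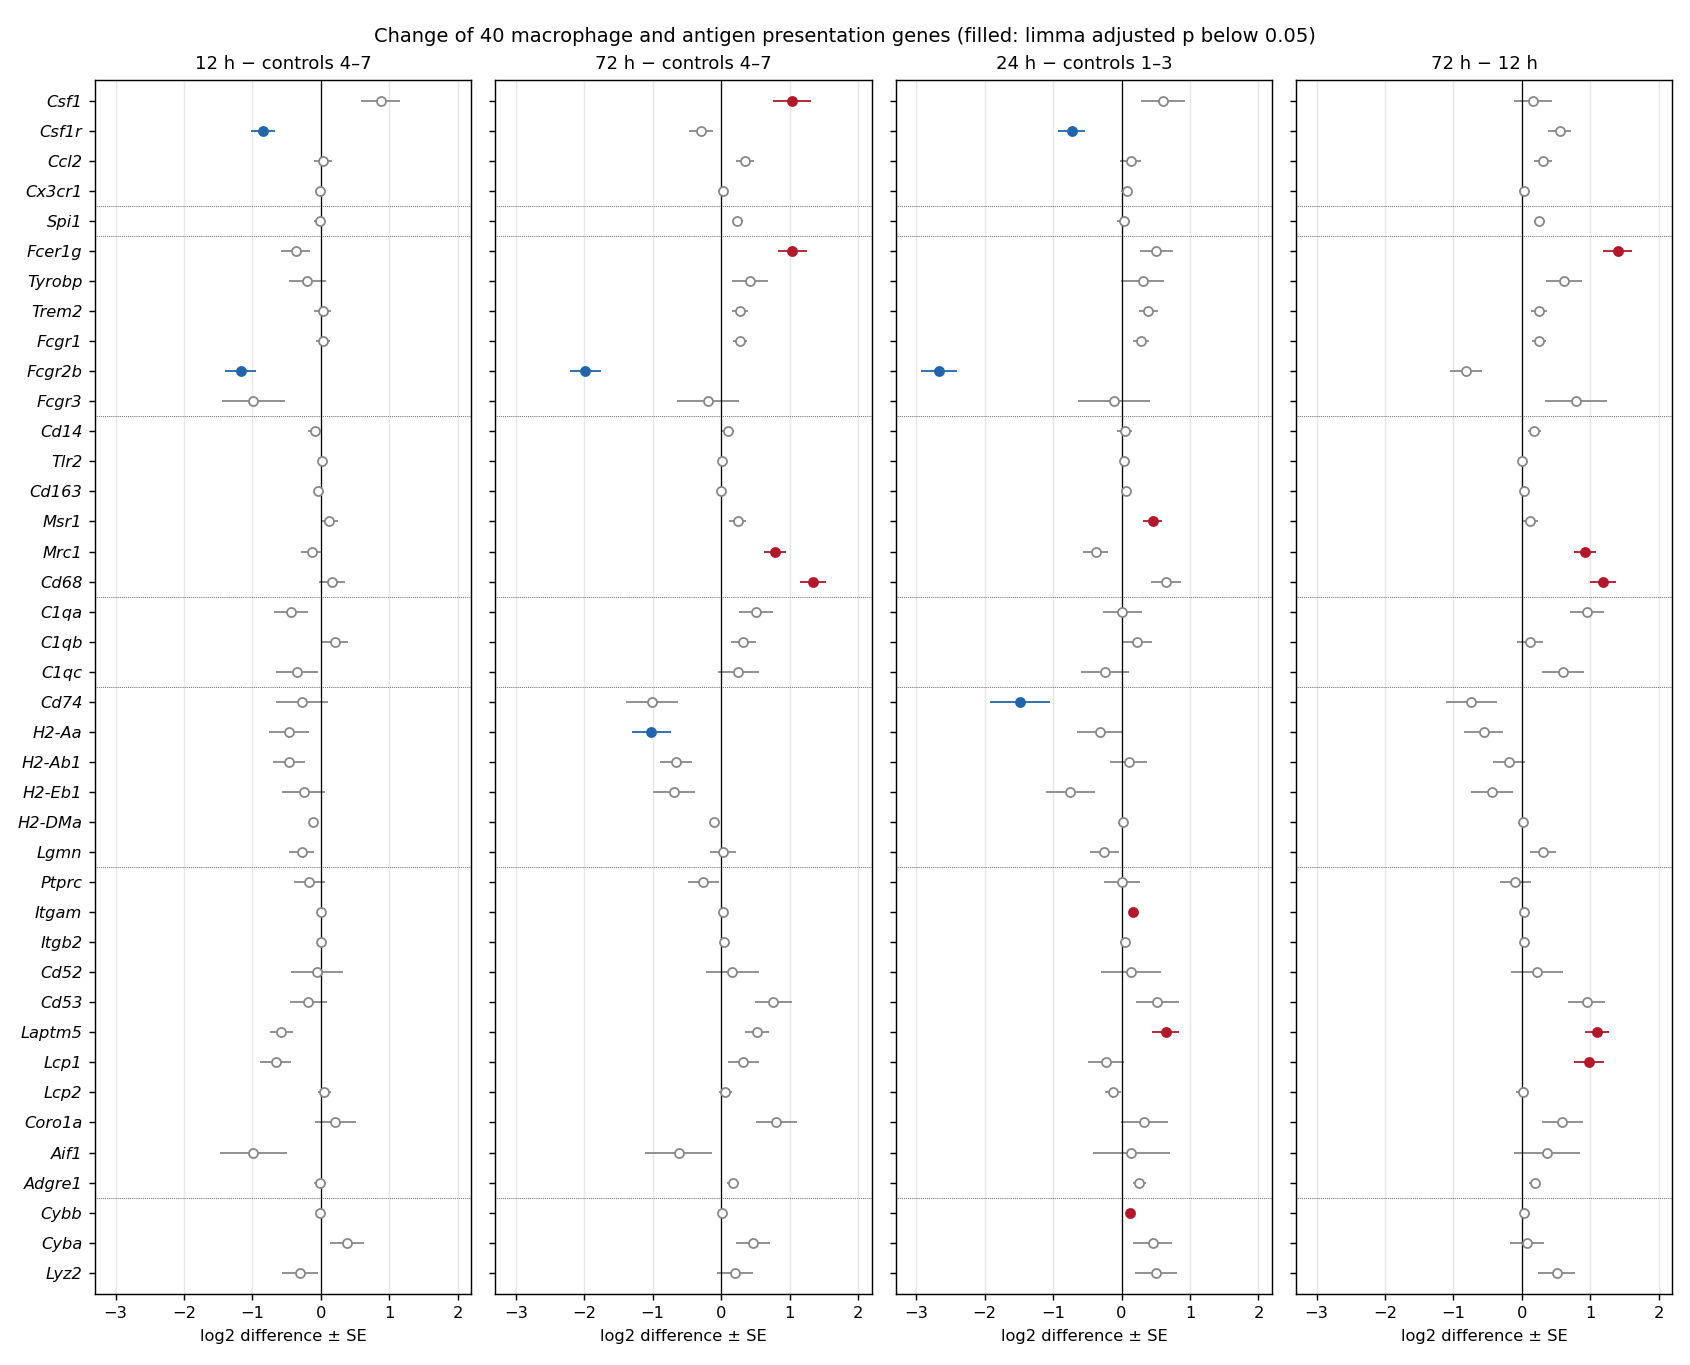
The change of each of the 40 members in log2 units, by role, at 12 h and 72 h against controls 4 to 7 and at 24 h against controls 1 to 3, with filled points for calls at an adjusted p below 0.05. Fcgr2b lies farthest to the left at each time, between -1.17 and -2.67, and Cd68 and Fcer1g lie farthest to the right at 72 h.

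The member with the largest change at each time was Fcgr2b, the inhibitory receptor for IgG on macrophages, B cells and some endothelial cells. It read 9.26, 9.73, 9.29 and 9.13 in controls 4 to 7, 7.73, 7.98, 8.47 and 8.54 at 12 h, and 8.04, 7.13, 7.33 and 6.97 at 72 h (probe set 1435477_s_at). In the other array set it read 8.81, 8.69 and 8.84 in controls 1 to 3 and 6.41, 5.95 and 5.98 at 24 h. Every treated array lay below every control of its set. The difference was -1.17 ± 0.23 (SE) at 12 h, adjusted p = 0.00601, and -1.99 ± 0.23 at 72 h, adjusted p = 0.000114. At 24 h Fcgr2b was 6.34-fold lower, a difference of -2.67 ± 0.26 with adjusted p = 2.25e-05. The further difference between 12 h and 72 h, -0.82 ± 0.23, had an adjusted p of 0.0852, and the excess of the 24 h change over the 12 h change, -1.49 ± 0.35, one of 0.06, so that the times were not separated by these tests.

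Fcgr2b has 4 probe sets on the array, and each was lower at each time. Beside the brightest, probe set 1435476_a_at differed by -0.95 at 12 h (adjusted p = 0.0137) and 1455332_x_at by -1.21 (adjusted p = 0.00246). The difference of -0.98 in 1451941_a_at was not called at 12 h (adjusted p = 0.199). At 72 h and at 24 h each of the 4 was called, with differences of -1.36 to -2.24 and of -1.79 to -3.21. On this platform a name ending in _s_at or _x_at marks probes that can match more than 1 transcript.

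**Figure D2:**
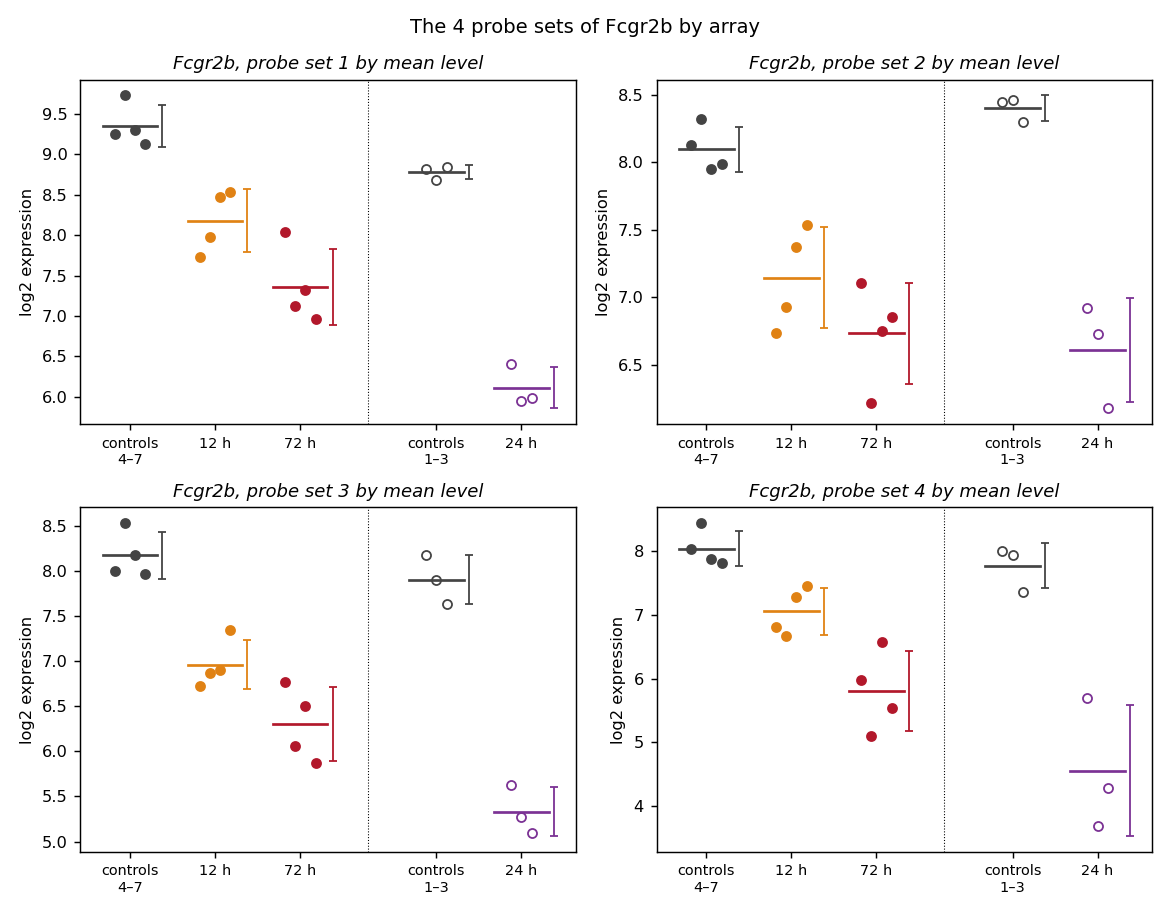
Log2 expression of Fcgr2b on each of the 18 arrays for each of its 4 probe sets, with group means as lines and SD as bars, and the array sets divided by the dotted line. In the brightest probe set the 3 arrays at 24 h sit between 5.95 and 6.41, below controls 1 to 3 at 8.69 to 8.84.

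Of the other 5 genes of Fc receptors, Trem2 and their adaptors, Fcer1g was called. Fcer1g, the gamma chain through which activating Fc receptors signal, read 5.38, 5.23, 5.54 and 5.38 in controls 4 to 7, 5.39, 4.54, 5.27 and 4.87 at 12 h, and 6.63, 6.59, 6.19 and 6.26 at 72 h (1418340_at). All 4 arrays at 72 h lay above every control and every array at 12 h. Fcer1g was 2.05-fold higher at 72 h than in controls (1.04 ± 0.21, adjusted p = 0.00799) and 2.64-fold higher than at 12 h (1.40 ± 0.21, adjusted p = 0.00267). At 24 h it read 5.43, 5.39 and 4.71 against 4.91, 4.86 and 4.25 in controls 1 to 3, which overlap, and the difference of 0.51 ± 0.24 was not called (adjusted p = 0.17).

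Fcgr3, a low-affinity activating receptor for IgG, varied widely among untreated mice, with 6.60 ± 0.81 (SD, n = 4) in controls 4 to 7 and 5.51 ± 1.01 (SD, n = 3) in controls 1 to 3. Its differences of -0.99 at 12 h, -0.20 at 72 h and -0.11 at 24 h were not called (adjusted p of 0.314, 0.931 and 0.905). Tyrobp, the adaptor of Trem2 and other activating receptors, stood at 5.40 ± 0.25 in controls 4 to 7, 5.20 ± 0.23 at 12 h and 5.81 ± 0.33 at 72 h (SD, n = 4 each), and its change of 0.42 at 72 h had an adjusted p of 0.536. Fcgr1, the high-affinity IgG receptor, stayed between 2.54 and 2.88 in all group means. Trem2, a lipid receptor of tissue macrophages, stood at 4.05 ± 0.21 in controls 1 to 3 and 4.44 ± 0.26 at 24 h (SD, n = 3 each).

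Among the scavenger and pattern receptors, Cd68, a glycoprotein of macrophage endosomes and lysosomes, had the largest rise of any member at 72 h against controls. It read 5.84, 5.34, 5.43 and 5.64 in controls 4 to 7, 5.57, 5.71, 5.92 and 5.69 at 12 h, and 7.30, 6.55, 6.65 and 7.09 at 72 h (1449164_at). The values at 12 h overlapped those of the controls, and those at 72 h lay above both groups. The rise at 72 h was 2.53-fold (1.34 ± 0.19, adjusted p = 0.000583), and the difference from 12 h was 1.18 ± 0.19 (adjusted p = 0.00413). At 24 h Cd68 read 5.48, 5.73 and 5.43, above the 4.64, 5.39 and 4.64 of controls 1 to 3 without overlap, and the difference of 0.65 ± 0.22 reached an adjusted p of 0.0624 without the pairs.

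Mrc1, the mannose receptor, read 8.20, 7.79, 7.52 and 7.89 in controls 4 to 7, 7.95, 7.55, 7.71 and 7.65 at 12 h, and 8.76, 8.63, 8.54 and 8.63 at 72 h (1450430_at). Here too the arrays at 72 h lay above all others of the set. The rise was 1.72-fold against controls (0.79 ± 0.16, adjusted p = 0.00801) and 0.92 ± 0.16 against 12 h (adjusted p = 0.00628). At 24 h Mrc1 read 6.75, 7.59 and 7.12 against 7.45, 7.58 and 7.58, and its difference of -0.38 ± 0.18 was not called (adjusted p = 0.174).

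The other members of this role were near the floor. Msr1, the class A scavenger receptor, read 3.65, 4.08 and 3.65 in controls 1 to 3 and 4.11, 4.29 and 4.34 at 24 h, without overlap. The difference was 0.46 ± 0.14 (adjusted p = 0.045). Its call was lost without any of the 12 h or 72 h arrays, without 24 h array 2 or 3, or without control 1, 3 or 5 (adjusted p up to 0.167). With the mean of its probe sets the difference was 0.22 (adjusted p = 0.0613), and against all 7 controls 0.69. All 7 controls pool both array sets, between which Msr1 differed by 0.41 in untreated mice (adjusted p = 0.0662). Cd163, the haemoglobin scavenger receptor, Cd14, a coreceptor for lipopolysaccharide, and Tlr2, a receptor for bacterial lipoproteins, had differences of at most 0.096 in size at 12, 24 and 72 h, none of them called.

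**Figure D3:**
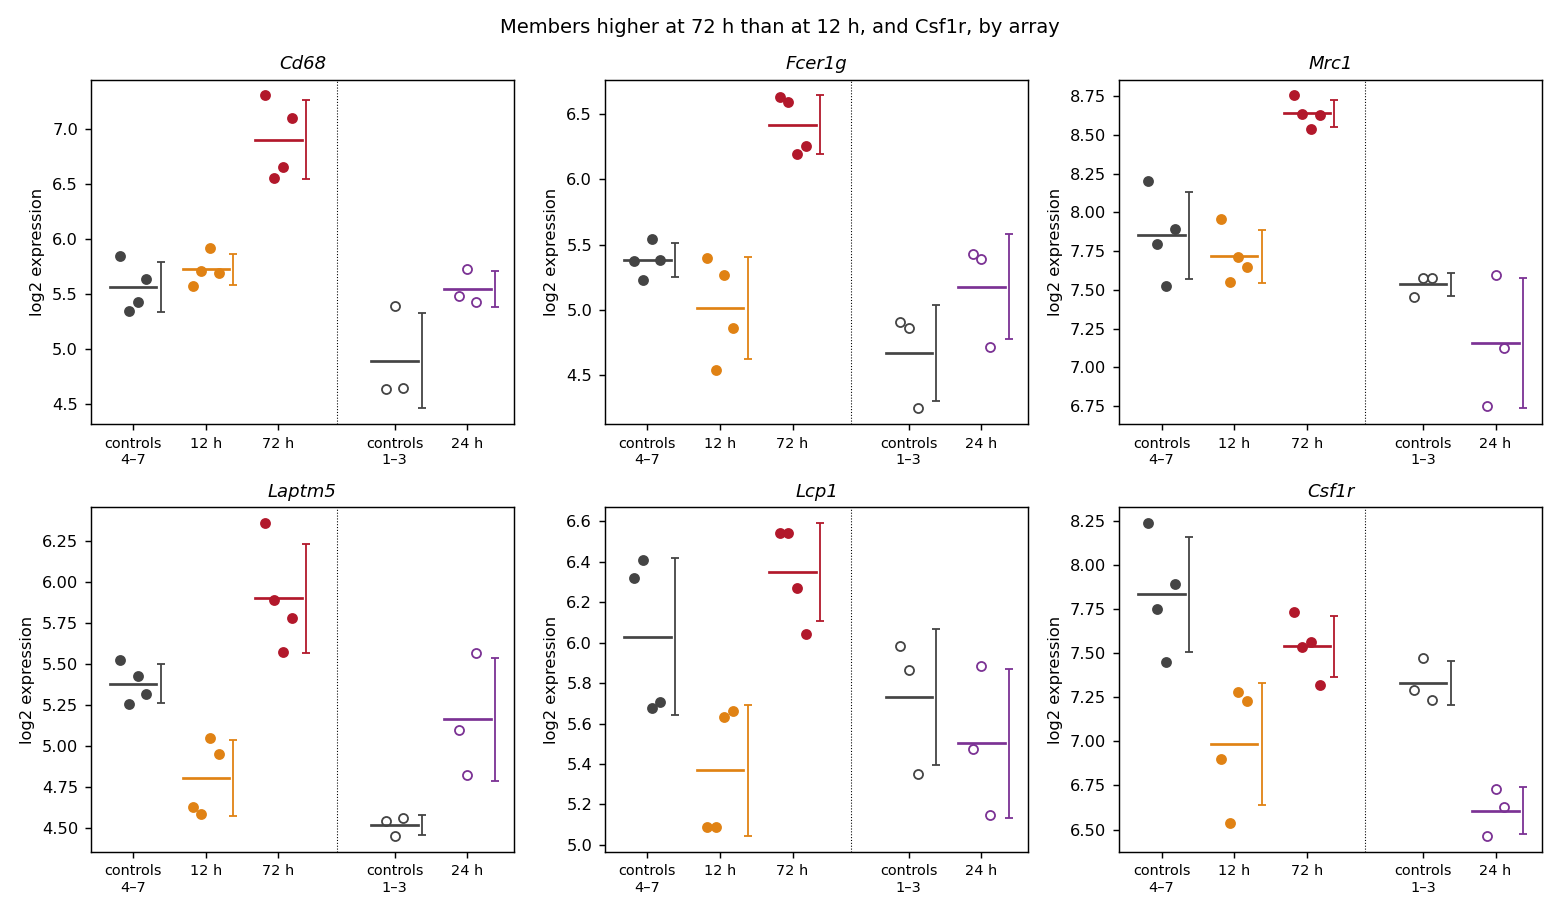
Log2 expression on each array for the 5 members called higher at 72 h than at 12 h, and for Csf1r, with group means as lines and SD as bars. In Cd68, Fcer1g, Mrc1 and Laptm5 all 4 arrays at 72 h sit above controls 4 to 7, and in Laptm5 and Lcp1 the arrays at 12 h sit below them.

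In the growth factor axis, the receptor Csf1r was called lower at 12 h and 24 h and the ligand Csf1 higher at 72 h. Csf1r read 8.24, 7.75, 7.45 and 7.89 in controls 4 to 7, 6.90, 6.54, 7.28 and 7.23 at 12 h, and 7.74, 7.54, 7.57 and 7.32 at 72 h (1419872_at). The arrays at 12 h lay below every control and every array at 72 h. Csf1r was 1.80-fold lower at 12 h (-0.85 ± 0.17, adjusted p = 0.00815). At 72 h its difference from controls was -0.29 ± 0.17 (adjusted p = 0.468), and the step from 12 h to 72 h, 0.55 ± 0.17, was not called (adjusted p = 0.136).

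At 24 h Csf1r read 6.46, 6.73 and 6.63 against 7.29, 7.47 and 7.23, lower by 1.65-fold without overlap (-0.73 ± 0.20, adjusted p = 0.0274). That call was lost without 24 h array 1 or 3 or without control 1 or 2, with an adjusted p of 0.0532 to 0.0773. The 2 dimmer probe sets of Csf1r were not called, with -0.37 and -0.59 at 12 h and -0.06 and -0.71 at 24 h. With the mean of its probe sets the change was -0.60 at 12 h (adjusted p = 0.0535) and -0.50 at 24 h (adjusted p = 0.111).

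Csf1, the ligand, read 5.86, 5.17, 4.49 and 4.82 in controls 4 to 7, 5.84, 5.71, 6.22 and 6.05 at 12 h, and 6.04, 5.90, 6.27 and 6.27 at 72 h (1460220_a_at). Control 4, at 5.86, overlapped the arrays at 12 h and lay just below those at 72 h. The difference was 0.87 ± 0.28 at 12 h (adjusted p = 0.0977) and 1.03 ± 0.28 at 72 h (adjusted p = 0.0416). The call at 72 h was lost without any 1 of the 72 h arrays, controls 2, 5, 6 and 7, or 12 h arrays 1, 3 and 4 (adjusted p of 0.0510 to 0.114). At 24 h Csf1 read 5.18, 5.30 and 6.05 against 5.43, 4.87 and 4.42 (0.60 ± 0.32, adjusted p = 0.213). Of its 3 dimmer probe sets, 1448914_a_at was called at 72 h (0.62, adjusted p = 0.0216) and 1425154_a_at at 24 h (0.74, adjusted p = 0.0423). Averaged over its 4 probe sets, Csf1 differed by 0.50 at 72 h (adjusted p = 0.00390).

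Ccl2, a chemokine that draws monocytes, and Cx3cr1, the fractalkine receptor, had group means of 2.77 to 3.12 and of 3.66 to 3.85, and no difference was called. Spi1, the transcription factor that drives myeloid development, read 2.51 to 3.08 on all 18 arrays. Its 72 h arrays read 3.02, 3.08, 2.63 and 2.62 and its largest difference was 0.26 between 12 h and 72 h (adjusted p = 0.175).

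Of the class II genes, Cd74 was called at 24 h and H2-Aa at 72 h, both lower. Cd74, the invariant chain, read 7.31, 5.999 and 6.58 in controls 1 to 3 and 5.92, 4.96 and 4.55 at 24 h (1425519_a_at). The arrays at 24 h lay below all 3 controls, the highest by a narrow margin, and the difference was -1.49 ± 0.44 (adjusted p = 0.0372). Without 24 h array 2 or 3, or control 1 or 3, the adjusted p was 0.0654 to 0.160, and with the 6 arrays fitted alone it was 0.230. Against all 7 controls the difference was -2.30. In the other set Cd74 read 8.01, 8.39, 8.25 and 7.53 in controls, 7.58, 7.45, 8.24 and 7.82 at 12 h, and 7.86, 6.90, 7.16 and 6.21 at 72 h. Its difference at 72 h, -1.01 ± 0.38, was not called (adjusted p = 0.154), and control and 72 h arrays overlapped.

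H2-Aa, a class II alpha chain, read 7.90, 8.25, 7.89 and 7.55 in controls 4 to 7, 7.37, 7.01, 8.02 and 7.32 at 12 h, and 7.58, 6.64, 7.00 and 6.28 at 72 h (1435290_x_at). The groups overlapped by 1 array at 72 h. The fall of 1.02 ± 0.29 on the log2 scale at 72 h had an adjusted p of 0.049. It was no longer called with the 12 arrays fitted alone (adjusted p = 0.0655), with the arrays normalised by quantiles (0.0533) or centred (0.0502), or without any of 14 single arrays: each of controls 1, 3, 4, 5, 6 and 7, the 3 arrays at 24 h, 12 h arrays 1 and 4 and 72 h arrays 2, 3 and 4 (up to 0.145). Against all 7 controls, which pool both array sets, the difference was -0.64 (adjusted p = 0.267). Controls 1 to 3 differed from controls 4 to 7 by -0.88 (adjusted p = 0.0873). The second probe set of H2-Aa gave -1.03 (adjusted p = 0.169). At 24 h H2-Aa read 6.85, 6.87 and 6.37 against 7.28, 6.47 and 7.29 (-0.32 ± 0.33, adjusted p = 0.529).

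The beta chains H2-Ab1 and H2-Eb1 were lower at 72 h by values that were not called, -0.66 ± 0.23 (adjusted p = 0.132) and -0.69 ± 0.31 (adjusted p = 0.27). H2-Ab1 read 5.27, 6.11, 5.19 and 5.19 in controls 4 to 7 and 5.16, 4.74, 4.82 and 4.41 at 72 h, without overlap, and without control 5 its difference was -0.43. H2-Eb1 read 6.40, 6.94, 6.19 and 6.27 against 6.24, 5.89, 5.83 and 5.09, which overlap. The exchange factor subunit H2-DMa stood at 2.36 to 2.47 in all groups. Legumain stood at 9.52 ± 0.47 in controls 4 to 7 and 9.55 ± 0.20 at 72 h (SD, n = 4 each), with no called difference at any time. Of the 6 class II genes, 6 lay below 0 at 12 h, 5 at 72 h and 4 at 24 h, with median changes of -0.28, -0.67 and -0.28, and 1 was called at 72 h and 1 at 24 h. The counts by sign include H2-DMa, which lies near the floor.

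**Figure D4:**
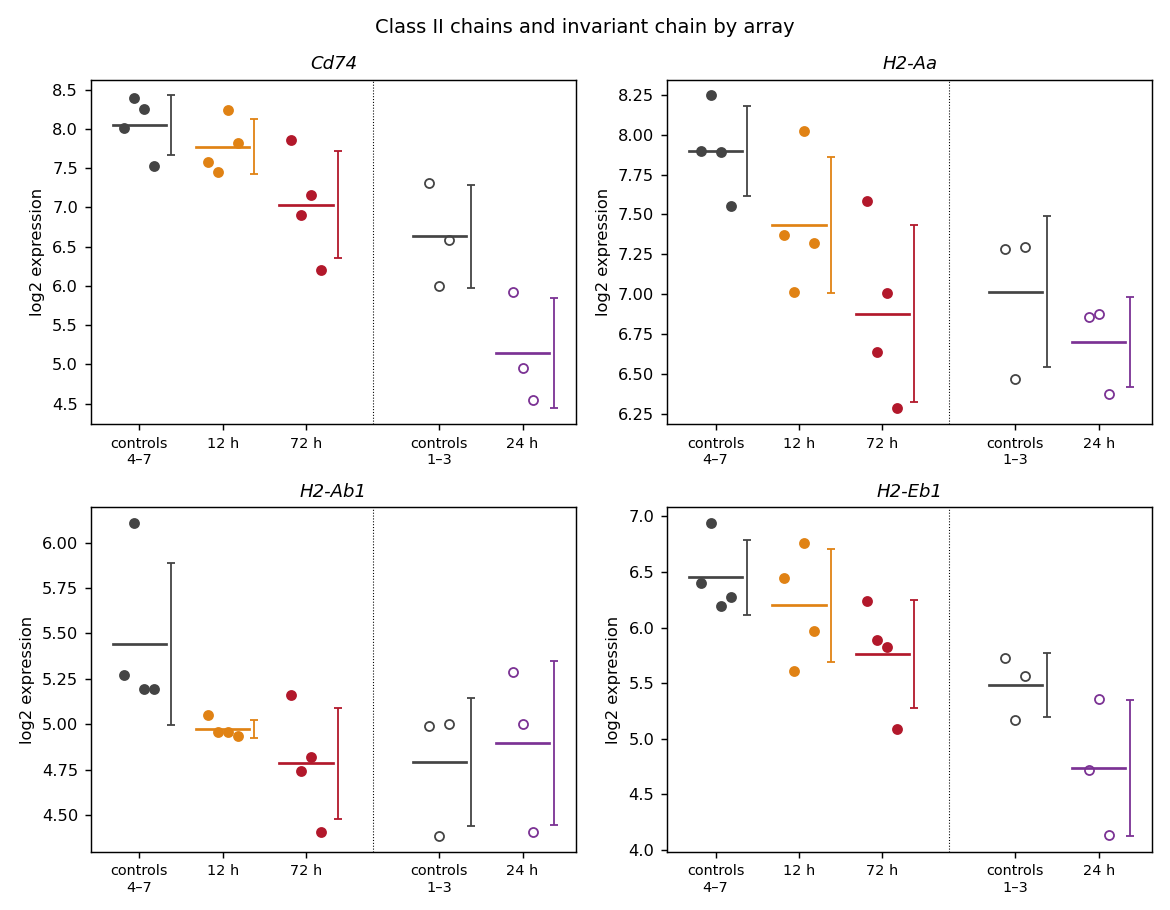
Log2 expression on each array of Cd74, H2-Aa, H2-Ab1 and H2-Eb1, with group means as lines and SD as bars and the array sets divided by the dotted line. The 72 h arrays of Cd74 spread from 6.21 to 7.86 beside controls 4 to 7 at 7.53 to 8.39.

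The promoters of 4 members are printed: Fcgr2b and H2-Aa as the genes called lower at 72 h, Cd68 as the member with the largest rise at 72 h against controls, and H2-Eb1 as a class II gene to set beside H2-Aa. They are the 250 bases before the start of the gene in RefSeq (mouse build GRCm38.p6), 5′ to 3′ on the strand of the gene, with matches to 3 motifs in capitals. The letters of the motifs were chosen with their counts known, and both strands were searched. The Y box of class II promoters was searched as TGATTGG, which on the opposite strand reads as the CCAATCA seen in Cd68. The cyclic AMP response element was searched as TGACGTCA. The core bound by Ets factors such as Spi1 was searched as GGAAGT, which on the opposite strand reads as the ACTTCC seen in Fcgr2b. The motifs do not share bases in these windows. H2-Aa lies at chr17:34287824-34288073 on the minus strand, H2-Eb1 at chr17:34305617-34305866 on the plus strand, Fcgr2b at chr1:170976072-170976321 and Cd68 at chr11:69666171-69666420, both on the minus strand.
H2-Aa: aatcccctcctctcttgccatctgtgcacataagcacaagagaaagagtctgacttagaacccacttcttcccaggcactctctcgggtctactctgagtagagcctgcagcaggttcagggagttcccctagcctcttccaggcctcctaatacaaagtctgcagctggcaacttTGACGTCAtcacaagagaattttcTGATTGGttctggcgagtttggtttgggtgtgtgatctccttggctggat
H2-Eb1: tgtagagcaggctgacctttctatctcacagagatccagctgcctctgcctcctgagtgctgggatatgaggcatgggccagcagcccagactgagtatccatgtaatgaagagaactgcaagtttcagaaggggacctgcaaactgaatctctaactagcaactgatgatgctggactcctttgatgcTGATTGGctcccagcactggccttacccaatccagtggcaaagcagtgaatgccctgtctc
Fcgr2b: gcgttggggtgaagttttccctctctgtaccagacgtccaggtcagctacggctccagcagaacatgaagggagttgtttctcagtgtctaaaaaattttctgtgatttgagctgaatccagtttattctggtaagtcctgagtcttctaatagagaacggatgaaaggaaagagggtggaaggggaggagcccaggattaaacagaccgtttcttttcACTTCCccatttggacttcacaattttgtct
Cd68: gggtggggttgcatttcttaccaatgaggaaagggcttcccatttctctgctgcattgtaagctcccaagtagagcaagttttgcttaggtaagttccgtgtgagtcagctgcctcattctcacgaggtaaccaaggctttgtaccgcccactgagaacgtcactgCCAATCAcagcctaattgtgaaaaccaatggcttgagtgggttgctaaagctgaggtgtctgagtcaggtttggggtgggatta

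A promoter was listed for 28 of the 40 members, which have 34 promoters in all. The Y box letters were found in H2-Aa, H2-Eb1 and Cd68 and in 7.2% of all 32851 promoters of this length. The letters searched as the cyclic AMP response element were found in H2-Aa and in 1.5% of all promoters. In H2-Aa they lie 74 to 67 bases before the start, upstream of the Y box letters at 50 to 44. Whether they act as such an element was not tested. The Ets core was found in 11 of the 34 member promoters and in 19.7% of all promoters. Those 11 belong to 10 members (C1qb, C1qc, Fcgr1, Fcgr2b, Laptm5, Lcp1, Lyz2, Mrc1, Ptprc and Tlr2). A match describes the letters and shows no binding.

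The 3 C1q genes, which encode the chains of the C1q molecule, were not called in any comparison with controls. C1qa stood at 6.78 ± 0.34 in controls 4 to 7, 6.34 ± 0.28 at 12 h and 7.29 ± 0.30 at 72 h (SD, n = 4 each). All 4 arrays of C1qa at 72 h lay above those at 12 h, a difference of 0.95 ± 0.25 with an adjusted p of 0.0631. C1qb and C1qc were higher at 72 h than at 12 h by 0.12 and 0.60, with adjusted p of 0.961 and 0.518. The 2 dimmer probe sets of C1qb gave 0.59 and 0.58 (adjusted p of 0.343 and 0.367).

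Among the 11 genes of leukocyte surface and cytoskeleton, Laptm5, a lysosomal protein of blood cells, was called at 24 h and between 12 h and 72 h. It read 5.53, 5.26, 5.43 and 5.32 in controls 4 to 7, 4.63, 4.59, 5.05 and 4.96 at 12 h, and 6.36, 5.89, 5.58 and 5.78 at 72 h (1436905_x_at). These 3 groups did not overlap. The difference was -0.58 ± 0.17 at 12 h (adjusted p = 0.0703) and 0.52 ± 0.17 at 72 h (adjusted p = 0.0992), neither called, whereas that between 72 h and 12 h was 1.10 ± 0.17 (adjusted p = 0.00328).

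At 24 h Laptm5 read 5.10, 4.82 and 5.57, above the 4.55, 4.45 and 4.56 of controls 1 to 3 (0.64 ± 0.20, adjusted p = 0.045). It was the 1 member whose change at 24 h differed from that at 12 h, by 1.22 ± 0.26 (adjusted p = 0.0453), where 0.928% of all genes were called, 0.282% higher and 0.646% lower. The 24 h call was lost without 24 h array 1 or 3, any 1 of the 7 controls, 12 h array 2 or 4, or 72 h array 2 or 4, with 0.44 and an adjusted p of 0.138 without 24 h array 3. The difference between the times was lost without any 12 h array, 24 h array 3, 72 h array 2 or 4, or control 1, 2, 4, 6 or 7 (adjusted p up to 0.0924). The 2 other probe sets of Laptm5 read 2.26 to 2.98 in all groups and were not called. With the mean of its 3 probe sets, the difference was 0.36 between 72 h and 12 h, 0.28 at 24 h and 0.46 between 24 h and 12 h, each still called (adjusted p of 0.00622, 0.0225 and 0.0390). Against all 7 controls the change at 24 h was 0.15 (adjusted p = 0.670), with controls 1 to 3 lower than controls 4 to 7 by 0.86. With no array set, the plain difference between the 24 h and 12 h arrays was 0.36 (adjusted p = 0.326). It runs across the sets and involves no control.

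Lcp1, an actin-bundling protein of leukocytes, read 6.32, 6.41, 5.68 and 5.71 in controls 4 to 7, 5.09, 5.09, 5.63 and 5.66 at 12 h, and 6.54, 6.54, 6.27 and 6.04 at 72 h (1415983_at). The arrays at 12 h lay below all others, and those at 72 h overlapped the controls. Its rise from 12 h to 72 h was 0.98 ± 0.23 (adjusted p = 0.0337) and was not called without 12 h array 1, 2 or 3 or 72 h array 1, 2 or 3 (adjusted p of 0.0533 to 0.108). It was 0.52 when its 2 probe sets were averaged (adjusted p = 0.0657). Against controls Lcp1 differed by -0.66 at 12 h, 0.32 at 72 h and -0.23 at 24 h, none called (adjusted p of 0.124, 0.599 and 0.561).

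Coro1a, an actin regulator of leukocytes, was not called by its brightest probe set at 72 h (0.80 ± 0.30, adjusted p = 0.154). Its second probe set, 1416246_a_at, was 1.05 ± 0.21 higher (adjusted p = 0.00672), and 0.94 higher than at 12 h (adjusted p = 0.0271). The tetraspanin Cd53 stood at 5.44 ± 0.15 in controls 4 to 7, 5.25 ± 0.16 at 12 h and 6.20 ± 0.39 at 72 h (SD, n = 4 each). Its arrays at 72 h lay above both groups, and its differences of 0.76 from controls and 0.95 from 12 h were not called (adjusted p of 0.133 and 0.0956).

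Adgre1, the adhesion receptor used as a macrophage surface marker, read 4.78, 4.83, 4.79 and 4.93 in controls 4 to 7, 4.85, 4.65, 4.95 and 4.82 at 12 h, and 4.96, 5.08, 4.93 and 5.04 at 72 h (1451161_a_at). The groups overlapped at 12 h and touched at 72 h, and the difference at 72 h was 0.17 ± 0.08 (adjusted p = 0.322). At 24 h Adgre1 read 5.07, 5.40 and 5.03 against 5.01, 4.93 and 4.78, without overlap (0.26 ± 0.10, adjusted p = 0.0846 without the pairs).

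Itgam, the integrin alpha chain of macrophages and neutrophils, was called at 24 h with a difference of 0.16 ± 0.05 (adjusted p = 0.0399), from 2.44, 2.53 and 2.47 in controls 1 to 3 to 2.53, 2.67 and 2.72. Cybb, the catalytic subunit of the phagocyte oxidase, was called with 0.13 ± 0.03 (adjusted p = 0.0199), from 2.09, 2.11 and 2.11 to 2.29, 2.24 and 2.18. Both lie at the floor, where so small a difference says little of the transcript. Fitted in the 6 arrays alone, neither was called (adjusted p of 0.299 and 0.254), nor after quantile normalisation, with 0.073 and 0.076 (adjusted p of 0.145 and 0.0534). Itgam was also lost without 24 h array 2 or 3, control 1 or 3, 12 h array 2 or any 72 h array, and Cybb without 24 h array 1 or control 1 (adjusted p up to 0.143).

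The remaining leukocyte genes were not called at any time. The integrin chain Itgb2, the phosphatase Ptprc, the adaptor Lcp2 and the surface peptide Cd52 had group means of 2.60 to 4.10 and differences of at most 0.27 in size from their controls. Aif1, a calcium-binding protein of macrophages, read 6.71 in control 6 and at most 3.78 in the other controls 4 to 7. Its differences of -0.99 at 12 h and -0.62 at 72 h became -0.25 and 0.12 without that array.

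The small oxidase subunit Cyba stood at 7.43 ± 0.16 in controls 4 to 7, 7.82 ± 0.23 at 12 h and 7.89 ± 0.26 at 72 h (SD, n = 4 each), with differences of 0.38 and 0.46 that were not called (adjusted p of 0.567 and 0.403). Lyz2, the lysozyme of macrophages, differed by -0.30 at 12 h, 0.20 at 72 h and 0.50 at 24 h, none called. Its transcript has a near-identical copy, Lyz1, so that its values may hold both.

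Other genes of the same cells were read from lists. For the counts of this and every list below, the shares of all genes called at 12, 72 and 24 h were 3.52%, 4.23% and 6.38% higher. The shares called lower were 2.76%, 3.03% and 8.45%. Between 12 h and 72 h 1.76% of all genes rose and 1.1% fell. Of 35 further macrophage genes, 1 rose and 1 fell at 12 h, 1 rose at 72 h, and 1 rose and 3 fell at 24 h, with median changes of -0.0040, 0.017 and 0.059. Mpeg1, a pore-forming protein of phagosomes, fell at 12 h (-1.18, adjusted p = 0.00292) and at 24 h (-0.95, adjusted p = 0.0188), and was 0.94 higher at 72 h than at 12 h (adjusted p = 0.0272). Pla2g7, a secreted phospholipase, rose at 12, 72 and 24 h by 1.08, 0.87 and 1.38. The interferon regulatory factor Irf8 was lower at 24 h (-1.21, adjusted p = 0.00278), as was the neonatal Fc receptor Fcgrt (-0.90, adjusted p = 0.0366). Siglec1, Vsig4 and Folr2, markers of resident macrophages, lay between 2.23 and 2.98 in all groups.

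Of 12 further class II genes none was called against controls, and Rfx5, a factor that binds class II promoters, was 0.41 higher at 72 h than at 12 h (adjusted p = 0.0238). The class II activator Ciita lay at 2.19 to 2.28 in all groups. Of 8 class I genes, H2-D1 fell at 24 h (-0.75, adjusted p = 0.039) and no other was called. Of 30 chemokines and cytokines, 2 rose and 1 fell at 72 h. Tgfb1 was 3.92-fold higher (1.97 ± 0.23, adjusted p = 0.000114) and the platelet chemokine Pf4 2.10-fold higher (1.07 ± 0.21, adjusted p = 0.00682). Cxcl12, a chemokine of stromal cells, was lower at 72 h (-1.39, adjusted p = 0.0141) and 24 h (-1.82, adjusted p = 0.00426). At 24 h 5 genes of this list were called higher, with Mif by 0.43 and Il1b by 0.27. Of 22 signalling genes shared by leukocytes, Cytip was higher at all times (1.81, 2.07 and 2.21 at 12, 72 and 24 h) and no other was called. In every group 19 of these 22 genes lay below the median of all probe sets, where little can be measured. So did 23 of the 35 further macrophage genes, 8 of the 12 class II genes, 2 of the 8 class I genes and 22 of the 30 chemokines and cytokines.

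Markers of other cells that a testis can hold were read beside these results. None of 12 T cell, 7 B cell, 6 natural killer, 11 neutrophil, 7 dendritic and 4 red blood cell genes was called in any comparison with controls, and 12, 6, 6, 11, 6 and 4 of them lay below the median of all probe sets in every group. The summed level of the T cell list was 6.10 to 6.19 in controls 4 to 7 and 6.10 to 6.19 at 72 h, and that of the B cell list 6.49 to 6.71 and 6.51 to 6.86 (log2 of summed linear values). In controls 1 to 3 and at 24 h the T cell sums were 6.18 to 6.46 and 6.32 to 6.56, and the B cell sums 6.59 to 6.70 and 6.70 to 7.03. The median changes of the 6 lists at 24 h, in the order above, were 0.099, 0.064, 0.044, 0.13, 0.057 and 0.13. Of 8 mast cell genes, Hdc, the histidine decarboxylase, rose by 1.98 at 12 h, 2.86 at 72 h and 1.72 at 24 h, while the other 7 lay below the median in every group and were not called. Of 7 endothelial genes 1 fell at 12 h, Vwf by 0.63, and none was called at 72 h or 24 h.

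Of 7 germ cell genes, none below the median in every group, 1 fell at 12 h, 2 at 72 h and 3 at 24 h, with median changes of -0.29, -0.32 and -0.39. Sall4, a factor of undifferentiated spermatogonia, fell by 0.65, 1.03 and 1.10 at 12, 72 and 24 h, and Stra8, a gene of germ cells that respond to retinoic acid, showed differences of -1.03 and -1.06 at 72 h and at 24 h. At 24 h the receptor of stem cell factor, Kit, was 1.39 lower.

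Of 10 Sertoli cell genes, 3 rose and 1 fell at 12 h, 3 rose and 1 fell at 72 h, and 2 rose and 1 fell at 24 h, with median changes of 0.011, -0.047 and -0.099. The FSH receptor Fshr was lower by 1.10, 1.11 and 1.24 at 12, 72 and 24 h, and Inha, the inhibin alpha subunit, was higher by 1.87, 1.94 and 1.75. Rhox5, an androgen-regulated homeobox gene, was not called at 12 h. Its differences from controls were 4.27 (72 h) and 4.13 (24 h), and the step between 12 h and 72 h was 5.09. Of 4 Leydig cell genes 2 rose at 12 h, none was called at 72 h, and 3 rose at 24 h. Between 12 h and 72 h, where 5 members rose, 2 of these 4 fell, Cyp17a1 by 2.46 and Star by 1.66, and the median change was -1.18. The part of changes in the other cells of the testis in the results on the 40 genes was not tested. The summed level of the 40 members was 11.7 to 12.1 in controls 4 to 7, 11.4 to 11.7 at 12 h and 11.7 to 12.1 at 72 h, and in the other set 11.3 to 11.5 in controls 1 to 3 and 10.98 to 11.3 at 24 h. Such a sum of linear values is weighted to the brightest members, among them Lgmn (9.52 in controls 4 to 7) and Fcgr2b (9.35), and is no measure of the set as a whole.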

How the data were processed

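Whole testis RNA of 18 mice was hybridised to Affymetrix MOE430A arrays, from 8 µg of RNA each per the labels' protocols. The authors deposited 1 table of log2 expression values per probe set (1.04 to 15.2, taken as log2 from that range, since the table states no scale). RMA and GCRMA, which correct background, normalise and combine probes, appear in the submitters' processing notes. Which of them produced the table is not given in the sources used here. Of 22690 probe sets, 64 controls were left out. The platform annotation gave 1 symbol for 20380 of the rest, several for 691 and none for 1555. Entrez identifiers of all 40 members were found in the RefSeq gene table, with 0 symbols changed. Sequences are from RefSeq.

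limma 3.58.1 in R 4.3.3 fitted a mean for each of 5 cells (12 h, 24 h, 72 h, controls 1 to 3 and controls 4 to 7) over all 18 arrays, with 13 residual degrees of freedom, moderated variances and Benjamini-Hochberg adjustment over 22626 probe sets. The script was tested on simulated data. Precision is limited by the number of arrays, and correlations between arrays of 0.945 to 0.997 showed no duplicate. Array values are given for members called in a comparison that involves treated mice, for Lcp1, Msr1, Itgam and Cybb in 1 array set only. They are also given for Csf1r, Csf1, Adgre1 and Cd68, and for Spi1 as a range and at 72 h. From the other lists at most 4 genes by p, and others as examples, are named. The members and the 16 lists, of which 190 of 214 genes were measured, were chosen with earlier results of these data known.

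Arrays of 24 h and controls 1 to 3 with the same number deviated together from their group means (correlations of 0.179, 0.343 and 0.406 over probe sets), so the numbers were taken as pairs there, from the data and not from the labels. Arrays of 12 h and 72 h with the same number did not in each case (0.0133 to 0.130). The alternatives changed the control group, array set, normalisation, filter, probe set rule, variance model and blocks, and left out each array in turn. The block of the 24 h pairs alone was chosen after seeing the data.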

Additional observations from a re-analysis of the deposited data

Results flagged for a closer look

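Among the 120 combinations of a member and a group of 4 arrays, 7 held 1 array far from the other 3 by Dixon's test, about what chance gives (1 in 20 groups). Control 6 accounted for 3 of them: Aif1 read 6.71 there against 3.71 to 3.78, Cd52 3.63 against 4.02 to 4.05 and Lcp2 2.67 against 3.01 to 3.05. Control 5 read 6.11 for H2-Ab1 against 5.19 to 5.27 and 2.24 for Cd14 against 1.95 to 1.98. Control 4 read 5.77 for Tyrobp against 5.22 to 5.30. At 12 h array 3 read 3.47 for Ptprc against 2.68 to 2.79.

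For 5 members the level differed between 72 h and 12 h of treatment by the direct test: Fcer1g by 1.40, Cd68 by 1.18, Laptm5 by 1.10, Lcp1 by 0.98 and Mrc1 by 0.92. Laptm5 also differed between 24 h and 12 h, each against its own controls, by 1.22.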

How the results depend on the processing

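No called result changed direction under any alternative. The calls for Fcgr2b at 24 h and for Fcer1g, Mrc1, Cd68 and Laptm5 between 72 h and 12 h held under every alternative tried, and those for Fcgr2b, Cd68, Fcer1g and Mrc1 at 72 h and Fcgr2b at 12 h under every alternative but the replicate block. With the mean of its probe sets the Laptm5 difference between 72 h and 12 h shrank from 1.10 to 0.36. Under the replicate block the change at 72 h was 0.40 for Mrc1 and 0.39 for Csf1. In what follows, counts are of members unless probe sets are named.

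With all 7 controls and no array set, 1 was higher at 12 h, 1 lower at 72 h and 5 lower at 24 h (8137 probe sets called), and 7 were higher and 4 lower at 24 h against 12 h (9098 probe sets). In this setting 24 h against 12 h is the plain difference of the groups across the sets, with no control involved. With each array set fitted alone, 1 was lower at 72 h and 0 higher at 24 h (393 probe sets). After quantile normalisation 1 was lower at 72 h, 1 lower at 24 h, and 0 higher and 2 lower between the controls. With centred arrays 1 was lower at 72 h, 1 lower at 24 h against 12 h, and 3 higher between the controls (6547 probe sets). Among probe sets above the median level, which keep 23 members, 1 was higher at 12 h, 2 higher at 24 h, 1 lower at 72 h against 12 h, 1 lower at 24 h against 12 h, and 0 higher and 7 lower between the controls. With the mean of a gene's probe sets 1 was lower at 12 h and 1 at 72 h. With an intensity trend 0 were higher at 24 h against 12 h and 0 between the controls.

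With the replicate number as a block in all groups, 0 were lower at 12 h (255 probe sets), 0 higher and 0 lower at 72 h (244), 1 higher at 24 h, and 0 higher at 24 h against 12 h (52), 0 higher and 0 lower between the controls (98), with 324 probe sets called between 72 h and 12 h. Of controls 4 to 7 only control 4 shares its number with a 12 h or 72 h array, so that this block leaves 1 shared number in those comparisons. With the block of the 24 h pairs alone, 7 were higher at 24 h (4827 probe sets), 1 lower at 72 h, 1 lower at 24 h against 12 h (650), and 0 higher and 1 lower between the controls (1180).

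Leaving out 1 array at a time gave 0 to 1 higher and 2 to 3 lower at 12 h (877 to 1278 probe sets), 3 to 5 higher and 1 to 2 lower at 72 h (994 to 1456), and 0 to 4 higher and 1 to 3 lower at 24 h (1678 to 3848). It gave 4 to 6 higher and 0 to 1 lower between 72 h and 12 h (290 to 579), 0 to 1 higher and 0 to 1 lower at 24 h against 12 h (94 to 756), and 0 to 2 higher and 2 to 5 lower between the controls (1271 to 2650). The cause of these changes was not tested. The background correction could not be varied on the deposited values, and no probe-level signal over background was used, so that values of the 17 dim members have no order near the floor.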
